A study of Rattus norvegicus with 15 samples.

Results

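The genes described are 7 ligands of the transforming growth factor beta (TGF-β) superfamily, Gdf15, Gdf6, Bmp2, Bmp4, Inhba, Tgfb1 and Tgfb2, and 3 genes of the ID family, Id1, Id2 and Id3, which BMP signalling is known to switch on. They were chosen by name, with earlier results of these libraries in view, and are 10 of the 37367 genes in the deposited table and 27 of its 85322 transcripts. The libraries came from primary cultured brain microvascular endothelial cells (BMECs), labelled as taken from the cerebral microvessels of Sprague-Dawley rat littermates of both sexes aged 2 to 3 weeks. Each of 5 groups held 3 mRNA libraries. The control group received no x-rays and all other handling, and is labelled as cultured for 12 h. The other groups were collected 12 h or 24 h after 5 Gy or 20 Gy of x-rays, delivered to cells grown to partial confluence. The 24 h groups have no unexposed partner of the same culture time, so effects of exposure and of longer culture cannot be told apart in them. The labels do not say that the libraries of a group came from separate animals or cultures, so p-values measure only the spread between these libraries.

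Most ligands of this superfamily are secreted as dimers and bind a pair of type I and type II receptor kinases. TGF-βs and activins act mainly through SMAD2 and SMAD3, and BMPs and some GDFs mainly through SMAD1, SMAD5 and SMAD9. SMAD6 and SMAD7 are inhibitors that the signal itself induces. TGF-βs are stored in a latent complex, held by latent TGF-β binding proteins in the matrix or by GARP (Lrrc32) on the cell surface. GDF15 is a distant member, known as a stress cytokine that signals through GFRAL in the hindbrain and is induced by p53 and by the integrated stress response. ID proteins lack a DNA-binding region and hold E proteins away from DNA, and in endothelial cells ID1 is a common readout of BMP9, BMP10 and ALK1 signalling.

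Expression is given as FPKM, fragments scaled to transcript length and to the mapped total, summed over the transcripts of a gene. The aligned sequence recovered from the FPKM steps was 5.44 to 7.49 gigabases per library (median 6.63). The labelled cell type was checked against its markers. Of 12 endothelial markers 11 were found and only Flt1 and Slc2a1 had a mean of at least 1 FPKM. Tie1 and Emcn were listed at 0 in all 15 libraries, and Cdh5, Vwf and Cldn5 stayed below 0.3 FPKM. Smad4, the SMAD that TGF-β and BMP signalling share, was listed at 0 in all 15 libraries too. Whether a listed 0 marks a silent gene or a gap in the deposited values cannot be told here. All 7 fibroblast markers had a mean of at least 1 FPKM in every group. Their summed level was 1799 to 1989 FPKM in the control libraries, 1439 to 1549 at 12 h after 5 Gy and 1275 to 1380 at 12 h after 20 Gy. At 24 h it was 285.7 to 314.6 FPKM after 5 Gy and 273.2 to 327.8 after 20 Gy. Most of the control sum was collagen, and Col1a1, Col1a2 and Col3a1 went from means of 516.1, 414.4 and 534.7 FPKM in the control to 22.4 to 36.6 at 24 h. The markers did not move alike, and Pdgfra was at 52.1 FPKM in the control and at 60.8 and 51.6 at 24 h, with Fap at 1.94, 1.25 and 1.41. The part of this difference in the results below was not tested. In bulk libraries, fewer cells of a type and less RNA per cell cannot be told apart.

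Gdf15 had the widest range of the ligands, and its 5 groups did not overlap. In Rnor_6.0, it lies on chromosome 16 from 20555395 to 20557978 on the plus strand, with 1 annotated transcript in the table. The control libraries held 1.22, 1.25 and 1.82 FPKM, equal to about 47 to 74 reads of 150 bases. At 12 h, the values were 19.2, 20.4 and 26.4 FPKM after 5 Gy and 39.5, 41.3 and 48.1 FPKM after 20 Gy. The 24 h values were 59.6, 61.5 and 61.9 FPKM after 5 Gy and 72.8, 82.9 and 100.0 FPKM after 20 Gy. Every library of a group thus lay above every library of the group before it in this order. The group means were 1.43 ± 0.34, 22.0 ± 3.84, 43.0 ± 4.51, 61.0 ± 1.18 and 85.2 ± 13.8 FPKM (SD, n = 3). The exposed means were 15.4, 30.1, 42.6 and 59.6 times the control mean. On the log2(FPKM + 1) scale, which understates the change of a gene this low in the control group, the differences from the control group were 3.24, 4.18, 4.68 and 5.15 (SE 0.14). All 4 comparisons with control use the same control libraries.

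**Figure D1:**
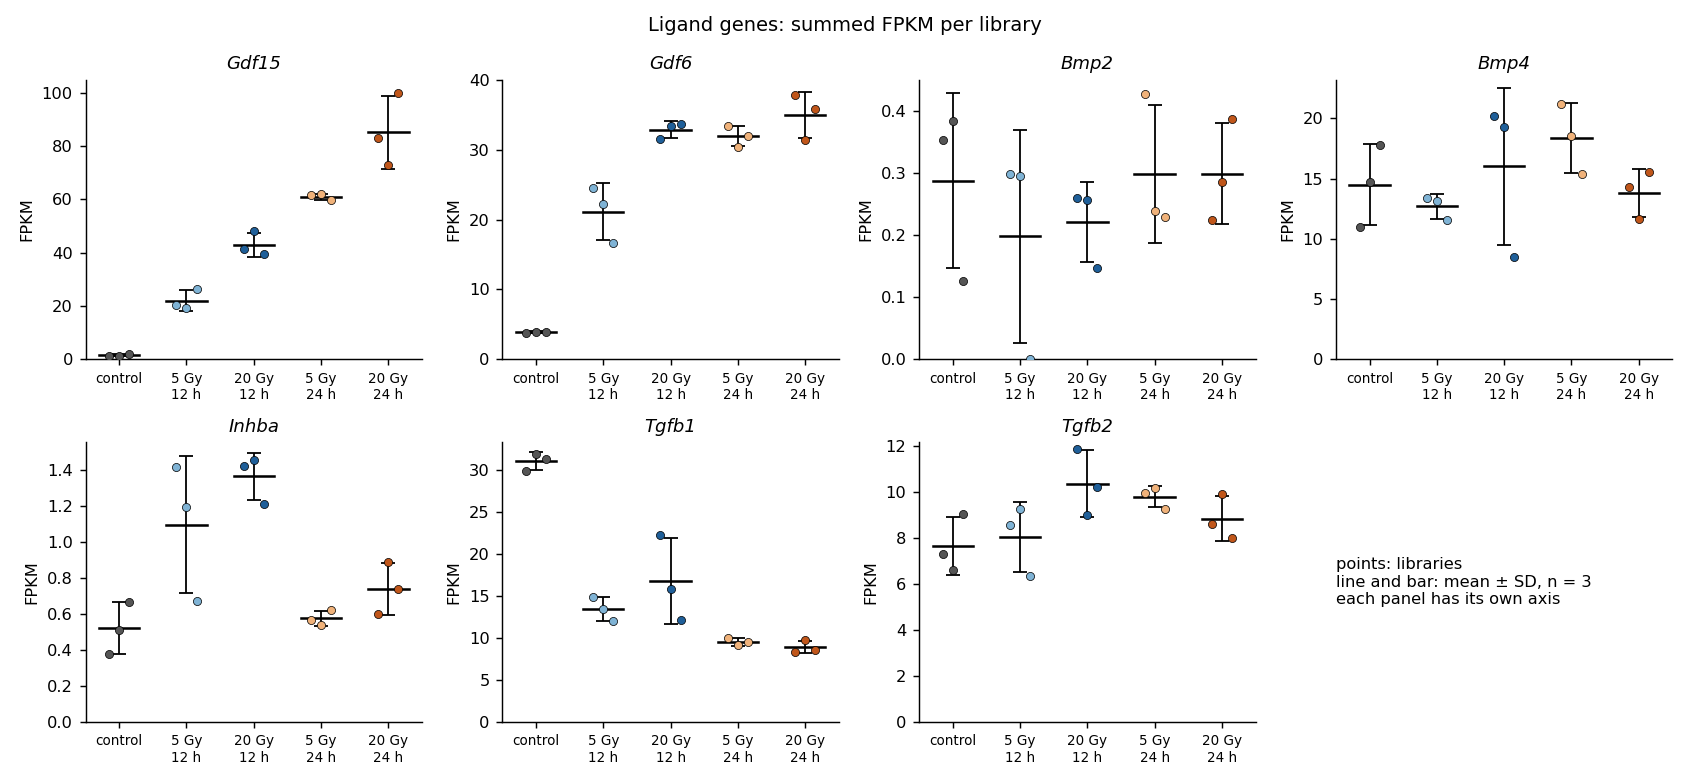
Summed FPKM of the 7 ligand genes in each library (y axis, linear from 0, each panel with its own range) in the 5 groups (x axis), with points for libraries and a line and bar for the mean ± SD (n = 3). Gdf15 lies at 1.22 to 1.82 FPKM in the control libraries and at 19.2 to 100.0 in the exposed ones, Tgfb1 at 29.8 to 31.9 and at 8.32 to 22.2.

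RefSeq lists 2 start sites of Gdf15 in the newer rat assembly GRCr8, which is not the build of the table. The 150 bases before each are shown because the gene had the largest differences here. Capitals mark TATAAA, the letters of a TATA box, and GGGCGG, a GC box, on either strand.

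Gdf15 start 1, chr16:18838286-18838435, plus strand: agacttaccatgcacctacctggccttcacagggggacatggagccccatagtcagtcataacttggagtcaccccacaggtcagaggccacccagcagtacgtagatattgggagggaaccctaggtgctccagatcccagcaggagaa

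Gdf15 start 2, chr16:18839115-18839264, plus strand: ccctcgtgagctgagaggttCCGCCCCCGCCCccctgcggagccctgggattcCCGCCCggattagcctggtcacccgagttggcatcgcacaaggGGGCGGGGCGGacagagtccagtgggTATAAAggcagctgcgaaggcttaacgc

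The first window held neither motif. The second held TATAAA at 28 to 23 bases before the start, and GGGCGG at 5 positions within 130 bases. Over the 250 bases before each of 33465 RefSeq starts, TATAAA occurred in 12.9% and GGGCGG in 30.5%. Neither Gdf15 window held a p53 half-site (6.64% of all windows) or TGATGNAA, the letters of a composite site of ATF4 and C/EBP (3.4%). A match is a description of these letters only, and a missing match says nothing about binding of the factor.

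Gdf6, a BMP-type ligand known for its part in joint, skull and eye formation, was also higher in every exposed library, and its mean differed little among 3 of the exposed groups. It lies on chromosome 5 from 23056347 to 23074599 on the plus strand, where an antisense locus overlaps it, and the counting is not stated to use strand. The control libraries held 3.71, 3.93 and 3.94 FPKM. At 12 h, the values were 16.6, 22.2 and 24.5 FPKM after 5 Gy and 31.5, 33.4 and 33.7 after 20 Gy. At 24 h, they were 30.5, 32.0 and 33.5 FPKM after 5 Gy and 31.4, 35.9 and 37.8 after 20 Gy. All exposed libraries lay above the controls and the 12 h libraries after 5 Gy lay below all other exposed libraries. The libraries of the other 3 groups overlapped. The differences from control were 2.17 and 2.80 at 12 h and 2.76 and 2.89 at 24 h (log2, SE 0.12, 5 Gy before 20 Gy), and the largest ratio of means was 9.07.

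Tgfb1, the most widely expressed TGF-β and one made by most cell types, ran the other way. It lies on chromosome 1 from 82480195 to 82497199 on the plus strand, with 1 transcript. The control libraries held 29.8, 31.2 and 31.9 FPKM. At 12 h, the values were 12.0, 13.4 and 14.9 FPKM after 5 Gy and 12.2, 15.8 and 22.2 after 20 Gy. The 24 h values were 9.07, 9.46 and 10.0 FPKM after 5 Gy and 8.32, 8.54 and 9.67 after 20 Gy. Each exposed library was below every control library and each 24 h library was below every 12 h library, while the doses overlapped at both times. The differences from control were -1.15 and -0.89 at 12 h and -1.60 and -1.70 at 24 h (log2, SE 0.16). The control mean was 3.25 and 3.50 times the 24 h means.

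Inhba, whose product forms activin A, was low and stood apart from control at 12 h only. It lies on chromosome 17 from 51898217 to 51914589 on the minus strand, with an annotated and an assembled transcript, and in each library the value stood in 1 of them with the other listed at 0. The summed values were 0.379, 0.509 and 0.667 FPKM in the control libraries, equal to about 38 to 76 reads. At 12 h, they were 0.673, 1.19 and 1.42 FPKM after 5 Gy and 1.21, 1.42 and 1.46 after 20 Gy. At 24 h, they were 0.537, 0.567 and 0.620 FPKM after 5 Gy and 0.596, 0.738 and 0.886 after 20 Gy. The lowest 12 h library after 5 Gy lay next to the highest control library, and both 24 h groups overlapped the controls. The 12 h means were 2.11 and 2.63 times the control mean, and the differences on the log2(FPKM + 1) scale were 0.45 and 0.64 (SE 0.13). With the highest transcript alone, the first of these was 0.18.

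Bmp4, Tgfb2 and Bmp2 showed no such pattern. Bmp4, a ligand of vessel and mesoderm development, lies on chromosome 15 from 20776054 to 20822740 on the minus strand with 7 transcripts, among which the values moved from library to library. Its libraries spanned 11.0 to 17.8 FPKM in the control group, 11.5 to 13.4 and 8.51 to 20.2 at 12 h after 5 and 20 Gy, and 15.4 to 21.2 and 11.7 to 15.6 at 24 h. All exposed groups overlapped the controls, and the differences lay between -0.16 and 0.33 (log2, SE 0.26). The sign at 24 h after 20 Gy turned with the scaling, at -0.05 as deposited and 0.03 after rescaling every library to a common total (TPM). Tgfb2, an isoform with a part in heart and endothelial-to-mesenchymal development, lies on chromosome 13 from 105039853 to 105141030 on the minus strand. Its libraries held 6.59 to 9.06 FPKM in the control group and 6.34 to 11.9 FPKM in the exposed groups. Only the 24 h libraries after 5 Gy, at 9.28 to 10.2 FPKM, lay above all controls, and neighbouring groups in the order of the means overlapped throughout. Bmp2, on chromosome 3 from 126335863 to 126346318, had group means of 0.20 to 0.30 FPKM, was listed at 0 in 1 library 12 h after 5 Gy, and was under the filter of a mean of 0.5 FPKM. It was the 1 of the 10 members that the model did not cover.

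The ID genes were the most abundant of the 10 per length, and the 3 of them differed in their course. Id1 lies on chromosome 3 from 148215540 to 148216718 on the plus strand. Its control libraries held 330.7, 339.5 and 347 FPKM. At 12 h, the values were 188.5, 202.9 and 211.2 FPKM after 5 Gy and 228, 229.8 and 235.5 after 20 Gy. The 24 h values were 153.6, 158.4 and 171.5 FPKM after 5 Gy and 103.7, 121.8 and 147.5 after 20 Gy. No 2 groups overlapped, with the controls highest and the 24 h libraries after 20 Gy lowest. The differences from control were -0.75 and -0.55 at 12 h and -1.07 and -1.45 at 24 h (log2, SE 0.10).

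The Id1 locus is shared with Hm13, the neighbouring gene of a signal peptide peptidase, and 2 assembled transcripts run from Hm13 into Id1. They hold both names, so they were not part of the sums above. They amounted to 8.31 ± 0.17 FPKM (SD, n = 3) in the control group, 6.70 ± 2.04 and 8.83 ± 1.77 at 12 h after 5 and 20 Gy, and 33.3 ± 4.84 and 23.0 ± 9.55 at 24 h. Annotated Hm13 was 79.3 ± 2.50 FPKM in the control group and 31.1 ± 4.77 and 45.4 ± 9.28 at 24 h after 5 and 20 Gy. With these transcripts added to Id1, its differences from control at 24 h were -0.83 after 5 Gy and -1.25 after 20 Gy, so that it stayed below control. The difference between 24 h and 12 h after 5 Gy went from -0.32 to -0.09.

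Id2 was higher at 24 h. It lies on chromosome 6 from 44348501 to 44363915 on the minus strand, with 6 overlapping transcripts of 581 to 1169 bases. The control libraries held 59.4, 65.7 and 106.5 FPKM. At 12 h, the values were 41.7, 43.6 and 59.5 FPKM after 5 Gy and 42.8, 53.9 and 63.3 after 20 Gy. At 24 h, they were 201.7, 212 and 218.1 FPKM after 5 Gy and 105.4, 159 and 207.3 after 20 Gy. The 24 h libraries after 5 Gy lay above all controls, and the lowest one after 20 Gy lay just below the highest control library. As FPKM moves with the length of the transcript that takes the reads, the sum was also expressed as reads. These were 2933 to 3704 in the control libraries, 2017 to 2296 and 1987 to 2185 at 12 h, and 7107 to 8031 and 5265 to 7780 at 24 h after 5 and 20 Gy, with both 12 h groups below and both 24 h groups above all controls. The reads are not scaled to depth, which was 6.23 to 6.73 gigabases in the control libraries. At 24 h, depth was 5.44 to 6.82 gigabases after 5 Gy and 6.51 to 7.49 after 20 Gy. The differences from control by FPKM were -0.64 and -0.50 at 12 h and 1.48 and 1.01 at 24 h (log2, SE 0.25). At 12 h after 5 Gy, the difference was 0.21 (SE 2.04) by the highest transcript alone.

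Id3 lay below control at 12 h and on both sides of it at 24 h. Its annotated transcript spans 154489590 to 154491223 on chromosome 5, plus strand, and 4 assembled transcripts start upstream. The control libraries held 542.5, 546 and 571.6 FPKM. At 12 h, the values were 418.1, 434.8 and 447 FPKM after 5 Gy and 393.1, 401.4 and 463.5 after 20 Gy. The 24 h values were 637.7, 724.1 and 783.1 FPKM after 5 Gy and 358.8, 406.8 and 557.1 after 20 Gy. All 12 h libraries lay below the controls, all 24 h libraries after 5 Gy lay above them, and 1 library at 24 h after 20 Gy lay within their range. In that library 72.7 FPKM and 37.8 FPKM stood in 2 assembled transcripts that held under 0.01 FPKM in every other library. Another assembled transcript held 60.1 and 61.5 FPKM in 2 of the 24 h libraries after 5 Gy and 13.7 in 1 after 20 Gy. Its annotated transcript alone held 441.9 FPKM, below the 528.5 to 538.5 FPKM of the controls. The differences from control were -0.35 and -0.40 at 12 h and 0.36 and -0.35 at 24 h (log2, SE 0.14).

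**Figure D2:**
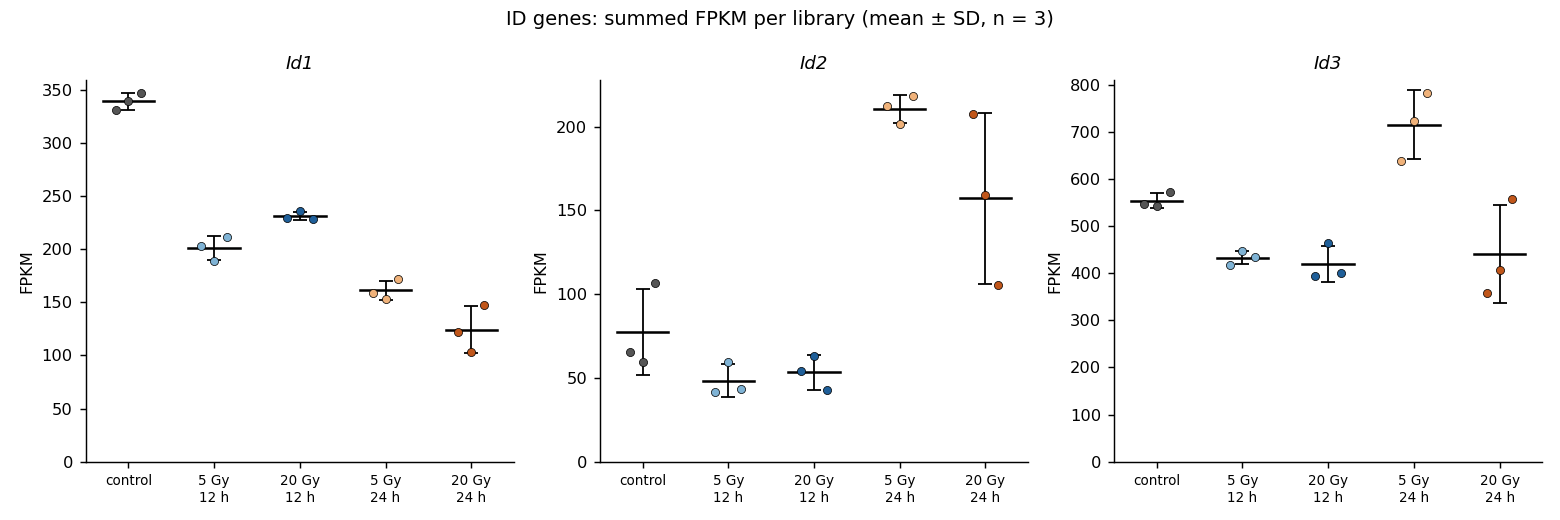
Summed FPKM of Id1, Id2 and Id3 in each library (y axis, linear from 0, each panel with its own range) in the 5 groups (x axis), with points for libraries and the mean ± SD (n = 3). Id1 is lower in all exposed libraries than in the controls, Id2 reaches 201.7 to 218.1 FPKM at 24 h after 5 Gy, and Id3 is at 637.7 to 783.1 there and at 358.8 to 557.1 after 20 Gy.

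The 150 bases before the RefSeq start of each ID gene are given for comparison of the 3 family members, in GRCr8 and with the same motifs in capitals.

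Id1, chr3:161671414-161671563, plus strand: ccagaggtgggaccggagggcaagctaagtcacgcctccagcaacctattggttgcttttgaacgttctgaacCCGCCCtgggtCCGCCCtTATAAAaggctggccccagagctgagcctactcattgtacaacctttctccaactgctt

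Id2, chr6:47470996-47471145, minus strand: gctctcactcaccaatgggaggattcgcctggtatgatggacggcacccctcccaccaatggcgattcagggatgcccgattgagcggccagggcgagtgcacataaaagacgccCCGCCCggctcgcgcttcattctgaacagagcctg

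Id3, chr5:153656141-153656290, plus strand: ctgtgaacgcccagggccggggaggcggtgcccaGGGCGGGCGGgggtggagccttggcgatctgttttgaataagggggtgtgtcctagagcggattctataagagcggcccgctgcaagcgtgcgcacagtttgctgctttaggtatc

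Each of the 3 held the GC box, and only Id1 held the TATA box. The letters GGCGCC, the core of a BMP-responsive SMAD element, were in none of the 9 windows of 250 bases that 8 of the 10 members had in the RefSeq table (8.69% of all windows held it). BMP elements known for Id1 lie farther upstream than these windows reach.

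Counted on the log2(FPKM + 1) scale over the 9 members above the filter, 2 were at least 1.5-fold higher than control at 12 h after 5 Gy (7.18% of all 17895 genes of the model) and 3 at least 1.5-fold lower (7.37% of all genes). At 12 h after 20 Gy, 3 were higher (6.86% of all genes) and 1 was lower (5.93%). At 24 h after 5 Gy, 3 were higher (21.9% of all genes) and 2 lower (22.7%), and at 24 h after 20 Gy 3 were higher (18.4%) and 2 lower (25.5%). Groups that did not overlap the control libraries were found for 6 members at 12 h after either dose (38.5% of all genes after 5 Gy and 36.8% after 20 Gy), for 7 at 24 h after 5 Gy (67.4%) and for 4 at 24 h after 20 Gy (62.7%). Between 12 h and 24 h, 4 members were higher by 1.5-fold at 24 h after 5 Gy (18.4% of all genes) and none lower (21.3%), and 2 were higher (15.7%) and 2 lower (24.4%) after 20 Gy. The added 1 shrinks the differences of low genes. Inhba was left out of these counts at 12 h after 5 Gy and between 12 h and 24 h, although by FPKM its mean was 2.11 times the control mean at 12 h after 5 Gy and its 24 h means were 0.525 and 0.543 times those at 12 h after 5 Gy and 20 Gy. The members were chosen with comparisons of these groups known, so these counts describe them and were not tested.

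The doses were compared at matched times, with p-values adjusted over all 17895 genes of the model. Results of the same exposed libraries were known when members were chosen, so these p-values are not independent of that choice. At 12 h, Gdf15 was higher after 20 Gy than after 5 Gy by 0.94 on the log2 scale (95% interval 0.63 to 1.26, limma, Benjamini-Hochberg adjusted p = 0.0243), and higher in 3 of 3 libraries. It was the only member called, against 0.123% of all genes. By limma it was lost with a pseudocount of 0.1 (adjusted p = 0.061) and in a fit of the 2 groups alone (adjusted p = 0.251). It was also lost without replicate 1 or 2 of either dose, where the difference was 0.86 to 0.97 (adjusted p by limma 0.0978 to 0.133). Gdf6 differed by 0.63 (interval 0.37 to 0.89, adjusted p = 0.0645 by limma) with no overlap of the libraries, which held for 3 members (12.8% of all genes). For the other 7 members, differences at 12 h lay between -0.05 and 0.34, with adjusted p from 0.666 to 0.976 by limma.

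At 24 h, Id3 was lower after 20 Gy than after 5 Gy by 0.72 on the log2 scale (95% interval -1.02 to -0.41, limma, Benjamini-Hochberg adjusted p = 0.0115), in 3 of 3 libraries, and the ratio of the means was 0.617. It was the only member called, against 2.42% of all genes. In a limma fit of the 2 groups alone the adjusted p was 0.168, and without replicate 3 of the 5 Gy group it was 0.0547. Without replicate 1 of the 20 Gy group the difference was -0.58, under 1.5-fold. Id1 differed by -0.39 (interval -0.62 to -0.16, adjusted p = 0.0554 by limma) and Gdf15 by 0.46 (interval 0.15 to 0.78, adjusted p = 0.0846 by limma), both with libraries that did not overlap, which held for 3 members (23.2% of all genes). Intervals of Gdf6, Inhba, Tgfb1 and Tgfb2 lay within -0.46 to 0.44, and those of Bmp4 (-0.97 to 0.20) and Id2 (-1.04 to 0.10) were wider.

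**Figure D3:**
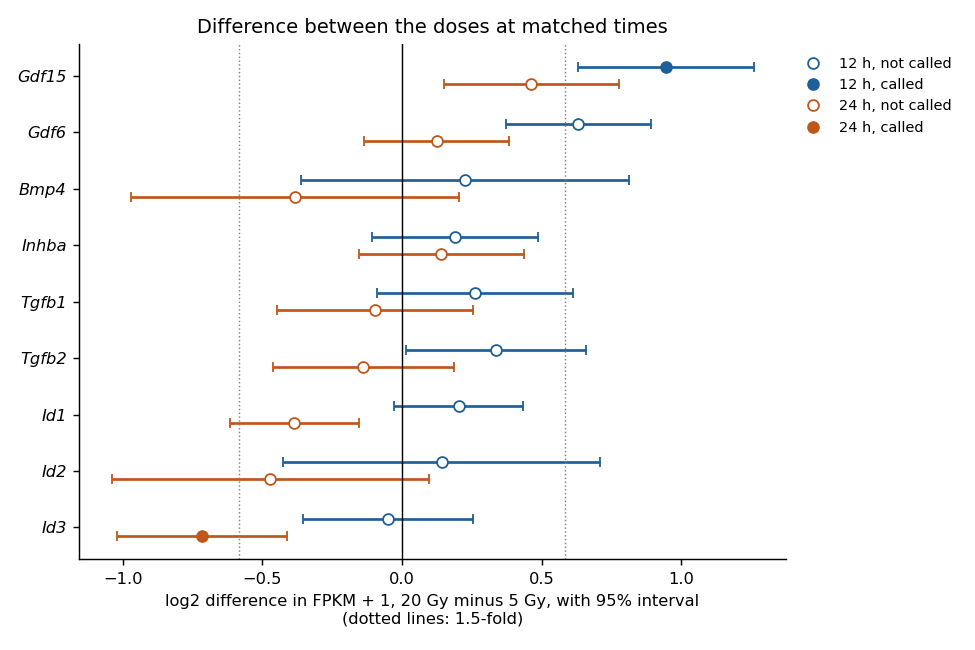
Difference between 20 Gy and 5 Gy in log2(FPKM + 1) (x axis) for the 9 members above the filter (y axis) at 12 h and 24 h, with the 95% interval, dotted lines at 1.5-fold and filled points for calls by limma. Gdf15 at 12 h (0.94) and Id3 at 24 h (-0.72) are the filled points.

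The change from 12 h to 24 h was also compared between the doses. No member was called, against 0.52% of all genes by limma. By limma without adjustment, p was under 0.05 for Gdf15, Gdf6, Tgfb2, Id1 and Id3. The share of all genes under this limit was not counted, so this is a description only. The difference was -0.67 for Id3 (interval -1.09 to -0.24, adjusted p = 0.158 by limma) and -0.59 for Id1 (interval -0.91 to -0.26, adjusted p = 0.102 by limma). All 9 differences were negative, from -0.67 to -0.05, beside a median of -0.07 over all genes. The share of all genes with a negative difference was not counted. By its annotated transcript alone, Id3 was called at -0.70 (adjusted p = 0.0263 by limma). Without replicate 3 of the 20 Gy 24 h group, Id1 (-0.72, adjusted p = 0.0116 by limma) and Id3 (-0.85, adjusted p = 0.0152 by limma) were both called.

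The rest of the pathway was followed in lists of 123 other genes, of which 84 passed the filter. At 12 h after 5 Gy, 12 of them were called, 4 higher and 8 lower (14.3%, beside 9.94% of all genes), and after 20 Gy 13, 4 higher and 9 lower (15.5%, beside 8.54%). At 24 h after 5 Gy, 43 were called, 29 higher and 14 lower (51.2%, beside 41.3% of all genes). At 24 h after 20 Gy, 43 were called as well, 21 higher and 22 lower (51.2%, beside 40.3%), or 28 higher and 19 lower on the TPM scale. The median of all genes at 24 h was -0.05 after 5 Gy and -0.14 after 20 Gy as deposited, and 0.06 and -0.09 on the TPM scale. The lists were drawn up with earlier results of these libraries known and are described by counts. Genes named from them below were mostly picked as the largest calls in these same libraries. Their p-values describe that pick and are not independent tests. For many genes the sum runs over several transcripts. With the highest transcript alone, the 24 h calls of Acvr1b, Smad6, Smad9 (20 Gy), Lrrc32 (5 Gy), Col1a2 (5 Gy) and Pcsk5 (5 Gy) were lost. So were those of Tgfbi, Fst and Id4 at 12 h after 5 Gy, and those of Tll1 at all its points.

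**Figure D4:**
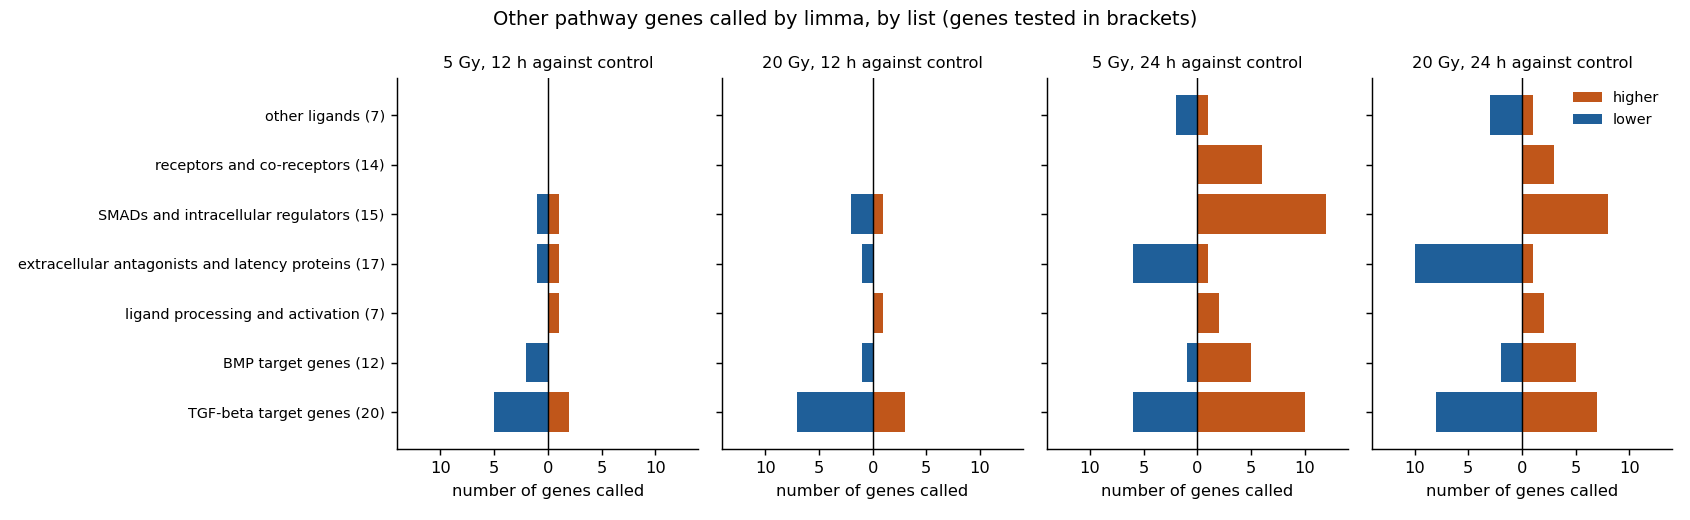
Number of genes called by limma (x axis, higher to the right and lower to the left of 0) in each of 7 lists of other pathway genes (y axis, genes tested in brackets), in the 4 comparisons with control. At 24 h the SMAD list holds 12 and 8 higher genes and none lower, and the list of antagonists and latency proteins 6 and 10 lower. Of all genes, 41.3% and 40.3% were called in either direction at 24 h after 5 and 20 Gy.

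Among other ligands, 7 of 26 passed the filter and none was called at 12 h. Bmp6, a ligand known for the control of hepcidin, had the highest FPKM of them, at 99.7, 149.9 and 243.2 in the control libraries. It fell to 68.7 to 86.3 FPKM at 24 h after 5 Gy and 65.1 to 96.7 after 20 Gy (log2 -1.04 and -0.98, SE 0.38, adjusted p = 0.0308 and 0.0401 by limma), and both calls lie beside a control range of 99.7 to 243.2. They were lost without control replicate 1 (-0.71 and -0.65) or 2 (-1.06 and -0.999), without replicate 2 or 3 of the 5 Gy group (-0.99 and -0.98) or replicate 1 or 3 of the 20 Gy group (-0.95 and -0.86), on the TPM scale (-0.90 and -0.91), after quantile normalization (-0.79 and -0.75) and with the highest transcript alone (-1.41 and -1.53). The call after 20 Gy was also lost with a replicate block (adjusted p = 0.0605 by limma) and with no filter (adjusted p = 0.0613 by limma). Tgfb3 fell at 24 h after 20 Gy, from 8.87 ± 0.99 to 5.37 ± 1.80 FPKM (adjusted p = 0.0366 by limma). That call was lost without control replicate 1 (-0.68), 2 (-0.74) or 3 (-0.59), without replicate 1 of the exposed group (-0.41) and with a replicate block (adjusted p = 0.0554 by limma). Inha, the inhibin alpha subunit, named after its values were seen, fell from 5.89 to 0.702 and 1.36 FPKM. Gdf1, a Nodal partner whose transcripts share a locus with Cers1, rose from 16.0 ± 1.49 to 35.8 ± 4.46 and 25.4 ± 5.81 FPKM. After 20 Gy its difference was under 1.5-fold without control replicate 1 (0.58) or 3 (0.57) or exposed replicate 3 (0.45).

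Receptors were called only upwards, 6 of 14 at 24 h after 5 Gy (beside 41.3% of all genes) and 3 after 20 Gy (beside 40.3%), with none at 12 h. On the TPM scale 7 and 6 were called, with a pseudocount of 0.1 7 and 5, after quantile normalization 6 and 5, and with the highest transcript alone 4 and 4. Bmpr1a, the type I BMP receptor ALK3, held 26.5, 27.4 and 29.3 FPKM in the control libraries. It held 87.8, 88.1 and 94.4 FPKM at 24 h after 5 Gy and 78.1, 78.9 and 81.7 after 20 Gy (log2 1.67 and 1.49, SE 0.07, adjusted p = 1.8e-09 and 4.18e-09 by limma). The rise stood in the annotated transcript of 3149 bases, which went from 7.04 ± 2.98 to 71.3 ± 3.41 and 64.8 ± 1.56 FPKM. An assembled transcript of 6040 bases was at 20.7 ± 2.65, 18.8 ± 1.57 and 14.7 ± 1.72 FPKM, and weighting the sum by length gave 1.18 and 0.97. Acvr1b, the type I activin receptor ALK4, rose from 6.61 ± 1.02 to 20.3 ± 1.59 and 17.0 ± 3.07 FPKM (log2 1.49 and 1.24, adjusted p = 5.07e-07 and 2.69e-06 by limma).

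SMADs and their intracellular regulators were called in 12 of 15 at 24 h after 5 Gy, all higher (beside 41.3% of all genes). After 20 Gy 8 were called, also all higher (beside 40.3%). At 12 h, 1 was higher and 1 lower after 5 Gy (beside 9.94% of all genes), and 1 higher and 2 lower after 20 Gy (beside 8.54%). Smad1, which carries the BMP signal, held 9.27, 10.2 and 10.4 FPKM in the control libraries and 10.6 to 11.9 at 12 h. At 24 h, it held 91.5, 94.1 and 99.3 FPKM after 5 Gy and 91.4, 101.1 and 106.3 after 20 Gy (log2 3.13 and 3.20, SE 0.07, adjusted p = 2.05e-11 and 1.58e-11 by limma). The annotated transcript alone gave 2.4 and 2.35, both called. Tgif1, a repressor of SMAD2 and SMAD3 responses, rose at all 4 points, from 2.19 ± 0.24 to 4.88 ± 0.07 and 5.37 ± 0.65 at 12 h and 11.6 ± 1.02 and 9.80 ± 1.58 at 24 h. Its call at 12 h after 20 Gy was lost with the highest transcript alone (0.61), and with named rows only, which leave out unnamed assembled transcripts, both 12 h calls (0.46 and 0.47) and that at 24 h after 20 Gy (0.89) were lost. Skil was lower at 12 h after 20 Gy, at 10.45 ± 1.59 FPKM beside 16.3 ± 0.91 in the control group (adjusted p = 0.0145 by limma). That call was lost with the highest transcript alone (-0.25), without control replicate 1 (-0.57) and without exposed replicate 2 (-0.50). Smad9 rose from 3.67 to 5.98 FPKM in the control libraries to 12.6 to 15.6 and 8.83 to 11.9 at 24 h. The inhibitor Smad6 rose at 24 h after 5 Gy (36.4 ± 6.06 to 119.6 ± 57.3 FPKM, adjusted p = 0.00124 by limma), and after 20 Gy was at 64.8 ± 19.9 (adjusted p = 0.0552 by limma). Smad7 rose from 10.5 ± 1.11 to 34.9 ± 8.72 and 21.1 ± 6.05 FPKM (adjusted p = 6.78e-05 and 0.00512 by limma). The Smad7 calls rest on assembled transcripts, since the annotated one alone gave 0.05 and -1.15, neither called.

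**Figure D5:**
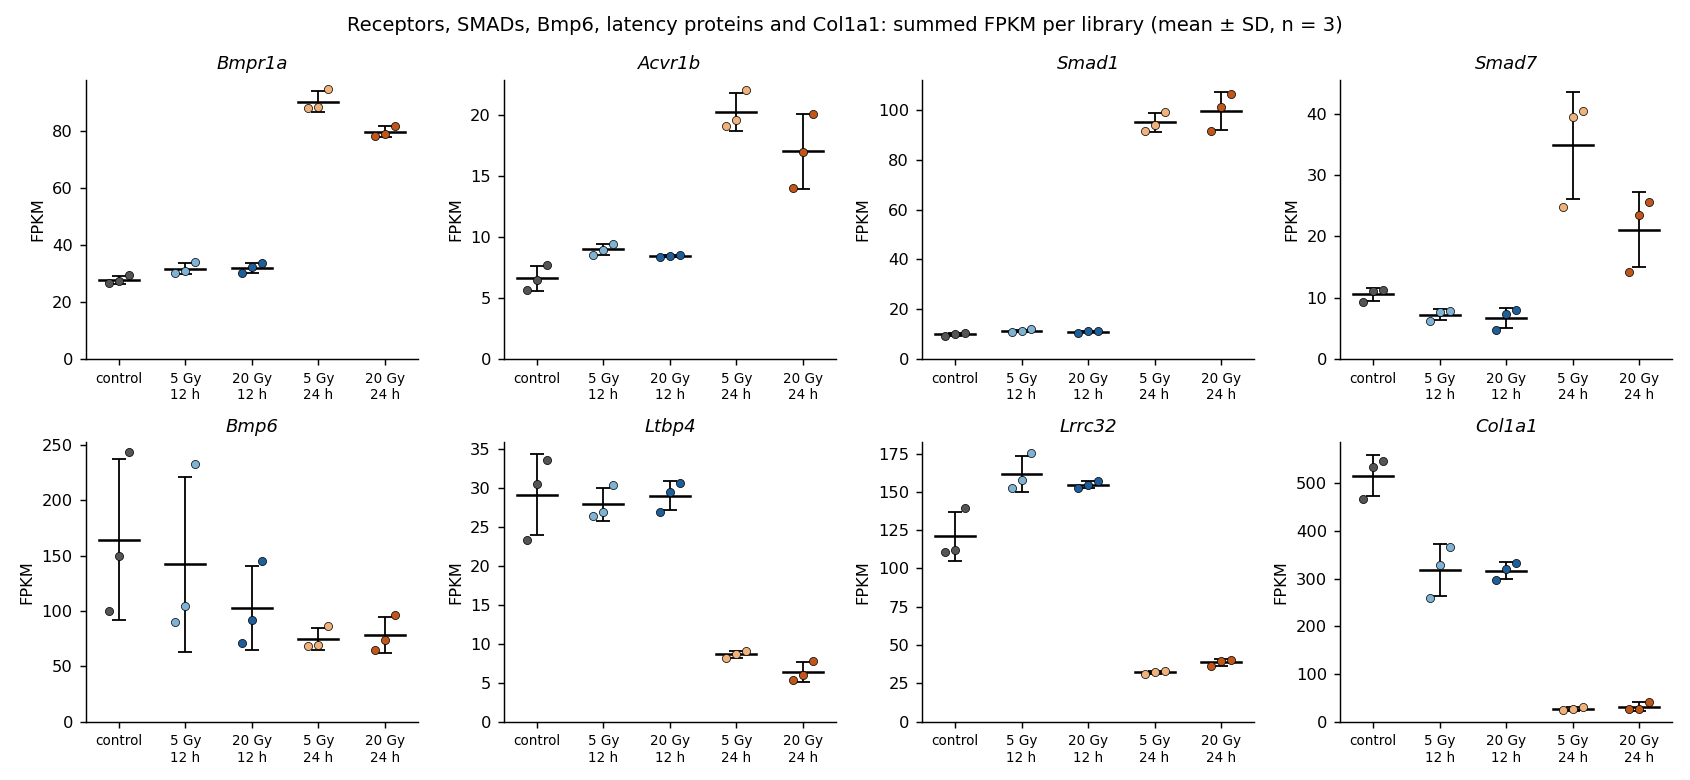
Summed FPKM in each library (y axis, linear from 0, each panel with its own range) of Bmpr1a, Acvr1b, Smad1, Smad7, Bmp6, Ltbp4, Lrrc32 and Col1a1 in the 5 groups (x axis), with points for libraries and the mean ± SD (n = 3). Smad1 is at 9.27 to 11.9 FPKM in the control and 12 h libraries and at 91.4 to 106.3 at 24 h, and Ltbp4 and Lrrc32 are lower at 24 h than in the other libraries.

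Antagonists and latency proteins were called mostly downwards at 24 h. After 5 Gy 6 of 17 were lower and 1 higher, close to the 41.3% called among all genes. After 20 Gy 10 were lower and 1 higher, beside 40.3% of all genes. Of the proteins that hold latent TGF-β, Ltbp4 fell from 29.2 ± 5.24 to 8.66 ± 0.43 and 6.42 ± 1.27 FPKM (log2 -1.63 and -2.02, adjusted p = 5.62e-07 and 9.75e-08 by limma). Lrrc32, which codes for GARP, fell from 120.9 ± 16.2 to 32.3 ± 1.01 and 38.7 ± 2.14 FPKM at 24 h, and at 12 h it was at 161.8 ± 11.8 and 154.6 ± 2.34. Ltbp2, a relative of them that does not bind latent TGF-β, fell from 82.5 ± 10.2 to 28.2 ± 9.22 and 17.0 ± 7.75 FPKM. Decorin (Dcn), which binds TGF-β and is also in the fibroblast list, fell at all 4 points, from 195.5 ± 22.9 to 116.3 ± 9.25 and 111.3 ± 13.1 at 12 h and 82.3 ± 4.70 and 82.8 ± 11.9 at 24 h. Follistatin (Fst), which traps activins, rose at 12 h after 5 Gy from 35.6 ± 2.31 to 55.0 ± 12.0 FPKM (adjusted p = 0.0155 by limma), and after 20 Gy it was at 48.8 ± 5.60 (adjusted p = 0.0642 by limma). The Fst call was lost without control replicate 3 (0.54) or exposed replicate 3 (0.43). It was also lost in a fit of the 2 groups alone (adjusted p = 0.052 by limma). With the highest transcript alone or named rows only, it was lost too (adjusted p = 0.13 and 0.155 by limma). Thrombospondin 1 (Thbs1), an activator of latent TGF-β, rose at 24 h after 5 Gy from 700.7 ± 189.4 to 1408 ± 301.2 FPKM (adjusted p = 0.00642 by limma). At 24 h after 20 Gy it was at 986 ± 270.0. With named rows only, its difference after 5 Gy was 1.32 (SE 2.82) and was not called (adjusted p = 0.741 by limma).

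Of 7 genes for processing and activation, 1 was higher at 12 h after either dose, beside 9.94% and 8.54% of all genes called. At 24 h 2 were higher after either dose, a smaller share than the 41.3% and 40.3% called among all genes. Tll1, a protease that cleaves the BMP antagonist chordin, rose from 6.73 to 13.3 FPKM in the control libraries to 29.4 to 36.9 and 17.8 to 36.6 at 12 h, and to 17.5 to 21.7 at 24 h after 20 Gy. Pcsk5, a proprotein convertase, rose from 4.59 ± 1.10 to 11.0 ± 2.37 and 13.8 ± 2.33 at 24 h. With named rows only, its differences were 0.117 and 0.0028, neither called. Itgb8, a subunit of a TGF-β activating integrin, rose at 24 h after 5 Gy from 7.26 ± 0.69 to 11.7 ± 0.38 FPKM, under 1.5-fold without control replicate 3 (0.57) or after quantile normalization (0.51), and reversed with named rows only (-0.41). None of the 3 E protein genes, the partners of ID proteins, was called in any comparison with control, and their medians were -0.25 and -0.23 at 12 h and 0.41 and 0.49 at 24 h.

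Of 12 other genes that BMPs are known to induce, 2 were lower and none higher at 12 h after 5 Gy, and 1 was lower after 20 Gy. At 24 h, 5 were higher and 1 lower after 5 Gy, and 5 higher and 2 lower after 20 Gy. On the TPM scale, 8 were higher and none lower at 24 h after 5 Gy. Among all genes as deposited, 9.94% and 8.54% were called at 12 h, and 41.3% and 40.3% at 24 h, after 5 and 20 Gy. The genes that rose include Smad6, Smad7 and Smad9, given above. Id4, the fourth ID gene, fell at 12 h after 5 Gy from 9.34 ± 0.92 to 5.30 ± 1.63 FPKM and at 24 h after 20 Gy to 4.01 ± 0.71, where it was also lower than after 5 Gy (log2 -0.81, adjusted p = 0.0394 by limma). The 12 h call was lost without control replicate 2 (-0.74) or 3 (-0.69) or exposed replicate 3 (-0.52). It was also lost in a fit of the 2 groups alone (adjusted p = 0.0671 by limma). With the highest transcript alone or named rows only, it was lost too (adjusted p = 0.322 and 0.316 by limma). Msx1, a homeobox gene, fell at 24 h from 33.1 to 42.2 FPKM in the control libraries to 20.7 to 24.8 and 17.2 to 20.5, and without control replicate 1 the difference after 5 Gy was under 1.5-fold (-0.58).

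Of 20 genes that TGF-β is known to induce, 2 were higher and 5 lower at 12 h after 5 Gy and 3 and 7 after 20 Gy. At 24 h, 10 were higher and 6 lower after 5 Gy, and 7 and 8 after 20 Gy. Calls among all genes were 9.94% and 8.54% at 12 h, and 41.3% and 40.3% at 24 h, after 5 and 20 Gy. Col1a1 and Col1a2, the chains of type I collagen and also fibroblast markers, fell furthest. Col1a1 went from 467.1 to 546.1 FPKM in the control libraries to 24.4 to 31.0 and 25.8 to 42.0 at 24 h (log2 -4.21 and -4.03, adjusted p = 1.8e-09 and 2.41e-09 by limma). Col1a2 went from 414.4 ± 46.0 to 22.4 ± 5.48 and 30.7 ± 11.7 FPKM. Tgfbi, a matrix protein named for its induction by TGF-β, fell from 31.9 ± 1.48 to 17.4 ± 3.59 and 13.6 ± 1.72 FPKM at 12 h, and at 24 h was at 33.4 ± 0.89 after 5 Gy and fell to 20.9 ± 6.98 after 20 Gy. Junb, an AP-1 factor, fell at 12 h from 64.2 ± 1.15 to 19.9 ± 6.35 and 36.4 ± 8.84 FPKM and rose at 24 h to 412.7 ± 30.5 and 376.2 ± 26.8. Its 12 h call after 20 Gy was lost without control replicate 2 (-0.83) or 3 (-0.82) or exposed replicate 3 (-0.62). Cdkn1a, which p53 also induces, rose in all 4 comparisons, from 46.9 ± 13.4 to 257 ± 133.1 and 630.9 ± 58.6 at 12 h and 334.3 ± 122.7 and 640 ± 117.5 at 24 h. With its highest transcript alone none of the 4 was called, and the differences were -0.50 and 4.35 at 12 h and 1.71 and 4.36 at 24 h. Members of this list thus moved in opposite directions.

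Stress genes of p53 and of the integrated stress response, for which GDF15 is a known target, were taken as another list. It shares Cdkn1a with the list of TGF-β targets. Cdkn1a is thus in the counts that follow, although its calls were lost with the highest transcript alone. At 24 h, 7 of the 7 genes tested in the list were higher after both doses (beside 41.3% and 40.3% of all genes called in either direction). At 12 h 3 were higher and 1 lower after 5 Gy (beside 9.94% of all genes), and 4 higher and 1 lower after 20 Gy (beside 8.54%). Mdm2, the ubiquitin ligase of p53, rose from 24.2 ± 2.19 to 61.1 ± 7.60 and 99.7 ± 11.2 FPKM at 12 h and 201.3 ± 21.7 and 174.9 ± 44.6 at 24 h. Ccng1, another p53 target, rose from 110.4 ± 6.77 to 432.2 ± 3.48 and 536.4 ± 7.48 at 12 h, and was at 300.0 ± 4.23 and 394.4 ± 43.5 at 24 h. Ddit3, a transcription factor of the integrated stress response, rose from 3.92 ± 0.92 to 7.83 ± 1.06 at 12 h after 20 Gy and to 47.6 ± 14.3 and 28.1 ± 8.27 at 24 h.

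The genes with the pattern most like those of 4 members were taken by Pearson's r of log2(FPKM + 1) over the 15 libraries, among 8890 genes with a mean of at least 5 FPKM. For Gdf15 these were Trim7 (0.984), Ei24 (0.983) and Klhl20 (0.975), and for Id1 Zyx (0.977), Vasn (0.966) and Tlnrd1 (0.966). For Inhba they were Poglut1 (0.935), Capg (0.929) and Abhd12 (0.908), and for Bmp4 Med30 (0.803), Dusp7 (0.754) and Nudcd1 (0.739). The 15 libraries share 5 groups, and the values are given as a description with no test.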

How the data were processed

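RNA of 15 libraries was sequenced by the authors on an Illumina HiSeq instrument. The authors deposited FPKM per transcript, made with HISAT2 2.0.13, samtools 1.9 and StringTie 1.3.5 against Rnor_6.0, and the submitters' processing notes also name Trimmomatic, FastQC, kallisto and edgeR. Rows with a member's name, and unnamed rows of a locus that holds only that name, were summed per gene. The model was limma 3.58.1 (R 4.3.3) on log2(FPKM + 1) with 1 mean per group, a trended prior and 10 residual degrees of freedom, over 17895 genes with a mean of at least 0.5 FPKM. Genes past both a 1.5-fold difference and an adjusted p of 0.05 (Benjamini-Hochberg) are named called, and the script was tested on simulated data. Members and lists were chosen with earlier results of these data known, and members were tested only between doses. Those tests use the same exposed libraries, so they are not independent of the choice. From each list and comparison with control, up to 2 called genes per direction with the largest differences and a mean of at least 5 FPKM were named, and Inha was named after its values were seen. FPKM holds no counts. Of low values, 79.4% to 84.6% per library were whole multiples of 1 base within 0.1 step, from which aligned gigabases and reads were derived as estimates. Alternatives were a pseudocount of 0.1, other filters, quantile and TPM scaling, a fit of only the groups compared, a prior without trend, a replicate block, the highest transcript, named rows only and each library left out. A length-weighted sum and Id1 with the Hm13 transcripts were chosen after seeing the data.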

Additional observations from a re-analysis of the deposited data

Results flagged for a closer look

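The 2 assembled transcripts that run from Hm13 into Id1 stand outside the sums of both genes, and were above the control libraries (8.12 to 8.43 FPKM) at 24 h, with means of 33.3 FPKM after 5 Gy and 23.03 FPKM after 20 Gy. For Id3, every library lay below the controls at 12 h after 5 Gy and above them at 24 h, where the difference from control was 0.364 on the log2 scale. The difference between these times was not tested.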

How the results depend on the processing

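Of the values of members under the alternatives, 1339 kept their direction and call or moved by less than the spread, 75 moved further, 11 lost and 4 gained a call, and 2 reversed. Of those of named pathway genes, 882 kept direction and call, 81 lost the call and 5 reversed. For members against control or between times, a change of sign was counted as reversed only where the main difference was at least 1.5-fold. Between doses it was counted only where a call was made. Smaller differences also changed sign, such as Bmp4 at 12 h after 20 Gy (-0.133 to 0.445 with 1 library left out). The counted reversals came with the highest transcript or with named rows only, in which reads of assembled transcripts are left out. Id2 at 12 h after 5 Gy was 0.209 in both, Smad7 at 24 h after 20 Gy -1.15 in both, Cdkn1a at 12 h after 5 Gy -0.503 and -0.455, and Itgb8 at 24 h after 5 Gy -0.414 with named rows. With named rows, 7 pathway genes were called at 12 h after 5 Gy in place of 12. Between doses at 12 h, 0 members were called by limma with a pseudocount of 0.1, in the fit of only the groups compared, with the highest transcript and with named rows. At 24 h, 0 were called in the fit of only the groups compared, and for the change over time 1 was called with the highest transcript and with named rows. The cause was not tested. With 1 library left out, 0 to 1 members were called between doses at 12 h and at 24 h, and 0 to 2 for the change over time.

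The replicate numbers do not mark a shared animal or day in the labels. Deviations of same-numbered libraries of different groups correlated at -0.177 to 0.232 (30 pairs, median 0.00875). Those of differently numbered libraries correlated at -0.209 to 0.203 (60 pairs, median 0.00626). Of 15 libraries, 9 correlated best with their own number, and the number expected by chance was not worked out. With the replicate block, 12, 13, 42 and 41 pathway genes were called at 12 h after 5 and 20 Gy and at 24 h after 5 and 20 Gy, and 1, 1 and 0 members for the dose at 12 h, at 24 h and the change over time. Depth limits Bmp2 (0 to 62 reads per library) and Inhba (38 to 163 reads) most.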
